A study of Rattus norvegicus with 12 samples.

Results

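In glucose-deprived rat heart myoblasts, the chaperones of the endoplasmic reticulum (ER) were lower, and many contractile, matrix and inflammatory genes were higher, with 200 µM of the drug empagliflozin than with 100 µM. The comparison set the 3 libraries of cells deprived of glucose for 36 h with 200 µM empagliflozin against the 3 libraries of cells deprived for 36 h with 100 µM. These 6 libraries were taken by their labels from a series of 12, and all genes were compared. The remaining groups, used here to place the values, were 3 libraries of cells deprived for 36 h without the drug (GD) and 3 of control cells in high-glucose medium with 10% fetal bovine serum.

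All cells were H9c2(2-1), a wild-type line grown from embryonic rat heart. The labels name no solvent for the drug and no serum or base medium for the deprived groups, so drug and solvent amount cannot be told apart between the doses. They do not say whether replicates were separate cultures, so the p-values may measure only technical spread. The labels call the cells myocardial, but 7 of 9 cardiac markers were under 1 TPM (a level per transcript length) in all 6 drug libraries, with Ryr2, the cardiac calcium release channel, at 0 in all 12. Tnnt2, cardiac troponin T, and Gata4 were the cardiac markers above that level, and 4 of 8 skeletal muscle markers were likewise under 1 TPM in the 6. The highest skeletal marker was Des, desmin, at 22.2 to 26.0 TPM at 200 µM and 17.5 to 18.9 TPM at 100 µM. The results therefore describe a cell line with few cardiac markers.

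Empagliflozin inhibits SGLT2, a sodium and glucose cotransporter of the kidney, and is used in diabetes and heart failure. Glucose is needed to build the sugar chains that help proteins fold in the ER. When unfolded proteins gather there, the sensors ATF6, IRE1 and PERK start the unfolded protein response, which raises ER chaperones through the factors ATF6 and XBP1 and raises ATF4 and its partner CHOP through the integrated stress response. ATF6 and XBP1 are known to act through the ER stress response element (ERSE).

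The promoters of the ER genes are shown first, because 5 of the 8 genes that hold the ERSE letters are among the 14 named genes with the lowest log2 fold change between the doses. RefSeq promoters of the rat assembly GRCr8, from 250 bases before to 50 after each gene's start, were searched on both strands for CCAAT, then any 9 bases, then CCACG. Of the 35 tested genes on the list of ER chaperones, unfolded protein response and ER degradation, 26 matched a promoter, and 8 of these (30.8%) held the letters, against 22 of all 33469 promoters (0.0657%). The list was made of genes of a response known to act through this element, so the high share is no independent evidence. The motif was chosen after expression values were known, and a match is a description and not a binding site. The lines below show 7 of the 8 genes, and the capitals mark the fixed letters of the element, read in reverse where they start with CGTGG.
Hspa5, chr3:38452967-38452997, plus strand: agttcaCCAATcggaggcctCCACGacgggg
Hsp90b1 upstream match, chr7:23012445-23012475, minus strand: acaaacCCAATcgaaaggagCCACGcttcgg
Hsp90b1 downstream match, chr7:23012341-23012371, minus strand: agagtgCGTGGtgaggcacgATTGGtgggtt
Calr, chr19:40213129-40213159, plus strand: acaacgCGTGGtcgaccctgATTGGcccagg
Dnajc3, chr15:102432528-102432558, plus strand: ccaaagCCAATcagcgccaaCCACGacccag
Creld2, chr7:121789233-121789263, plus strand: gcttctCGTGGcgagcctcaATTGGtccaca
Xbp1, chr14:84604552-84604582, plus strand: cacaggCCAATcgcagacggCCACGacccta
Ero1b, chr17:92941452-92941482, plus strand: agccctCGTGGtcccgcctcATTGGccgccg

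The whole promoter of Hspa5, a gene long studied as a target of this response, holds the element at positions -43 to -25 from the start, with the same letters in capitals.
Hspa5, chr3:38452766-38453065, plus strand: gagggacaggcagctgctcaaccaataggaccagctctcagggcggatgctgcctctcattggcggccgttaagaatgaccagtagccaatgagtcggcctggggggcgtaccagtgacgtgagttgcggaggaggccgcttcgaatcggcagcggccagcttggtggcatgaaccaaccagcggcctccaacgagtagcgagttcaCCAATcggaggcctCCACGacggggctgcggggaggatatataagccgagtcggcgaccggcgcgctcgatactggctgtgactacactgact

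ER chaperone genes were lower at 200 µM than at 100 µM. Of the 35 tested members, 29 fell, 0 rose and 6 did not pass an adjusted p of 0.05, where 8.06% of the 12314 genes tested were called lower. The median log2 fold change of the list, 200 µM minus 100 µM, was -0.68, beside 0.12 over all tested genes. In 17 members all 3 libraries at 200 µM lay below all 9 other libraries, control included, where 3.13% of all tested genes did so. Set against GD, the list's median log2 fold change was -0.83 at 200 µM and -0.14 at 100 µM. Between GD and control, 20 members rose and 12 fell in GD, where 13.98% and 67.6% of all tested genes did.

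Hspa5 encodes BiP, the main Hsp70 chaperone of the ER. It had 317, 642 and 451 TPM at 200 µM, against 1724, 1849 and 1913 TPM at 100 µM, 2037, 2199 and 1509 TPM in GD and 328, 324 and 315 TPM in control. The libraries of the 2 doses did not overlap, and those at 200 µM reached from the control level upward. The log2 fold change was -2.02 with a standard error (SE) of 0.19 and an adjusted p of 9.29e-06. Hsp90b1, the ER member of the Hsp90 family, had 248, 318 and 276 TPM at 200 µM, against 1108, 1093 and 1172 TPM at 100 µM, with 404 to 434 TPM in control. Every library at 200 µM was thus below the control libraries as well as below those at 100 µM (log2 fold change -2.0, SE 0.13, adjusted p = 4.46e-07).

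Calr, calreticulin, a lectin that binds sugar chains on folding glycoproteins, had 565, 908 and 646 TPM at 200 µM, against 3034, 3299 and 3175 TPM at 100 µM, with 1131 to 1227 TPM in control. Its log2 fold change was -2.19 (SE 0.13, adjusted p = 3.49e-07), and the libraries at 200 µM were again the lowest of all 12. Canx, calnexin, the membrane-bound partner of calreticulin, fell less, with 114, 121 and 117 TPM at 200 µM against 179, 182 and 192 TPM at 100 µM (log2 fold change -0.65, SE 0.10, adjusted p = 0.000304).

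Sdf2l1, a cofactor that works with BiP and its DnaJ partners, had the lowest log2 fold change among the genes named by rule, -2.65 (SE 0.16, adjusted p = 3.49e-07). It stood at 57.2, 109 and 86.1 TPM at 200 µM, against 503, 482 and 570 TPM at 100 µM, 506, 531 and 557 TPM in GD and 68.6 to 75.9 TPM in control. The libraries at 100 µM and in GD lay together, and those at 200 µM lay around the control level. Dnajc3, a BiP cochaperone that also inhibits PERK, had 24.3, 33.9 and 28.9 TPM at 200 µM, against 103, 101 and 113 TPM at 100 µM (log2 fold change -1.84, adjusted p = 4.46e-07). Creld2, a stress-induced ER protein with disulfide isomerase activity, had 24.0, 46.5 and 29.8 TPM at 200 µM, against 146, 157 and 178 TPM at 100 µM (log2 fold change -2.27, adjusted p = 1.46e-06).

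Enzymes that form and shuffle disulfide bonds were among the genes that fell. Pdia4, a disulfide isomerase, had 121, 160 and 128 TPM at 200 µM, against 407, 452 and 460 TPM at 100 µM (log2 fold change -1.69, adjusted p = 6.98e-07). Ero1b, the oxidase that recharges such enzymes, had 2.54, 3.27 and 2.17 TPM at 200 µM, against 5.94, 6.13 and 8.06 TPM at 100 µM (log2 fold change -1.08, adjusted p = 0.000585). For Pdia4 the libraries at 200 µM were the lowest of all 12, and for Ero1b they lay near the 2.04 to 2.45 TPM of control.

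Fkbp2, a prolyl isomerase of the ER, had 109, 141 and 121 TPM at 200 µM, against 402, 389 and 374 TPM at 100 µM (log2 fold change -1.65, adjusted p = 1.2e-07). Manf, a stress-induced secreted protein that binds BiP, had 211, 301 and 255 TPM at 200 µM, against 774, 722 and 782 TPM at 100 µM (log2 fold change -1.58, adjusted p = 3.49e-07). Xbp1, the factor spliced by IRE1, had 47.4, 60.0 and 50.1 TPM at 200 µM, against 77.0, 81.6 and 83.1 TPM at 100 µM (log2 fold change -0.61, adjusted p = 0.000125). These gene-level values do not separate spliced from unspliced Xbp1. In each of these 12 ER genes replicate 2 was the highest of the 3 libraries at 200 µM. Canx, Xbp1 and Ero1b were chosen after their values were seen, for their promoter letters.

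**Figure D1:**
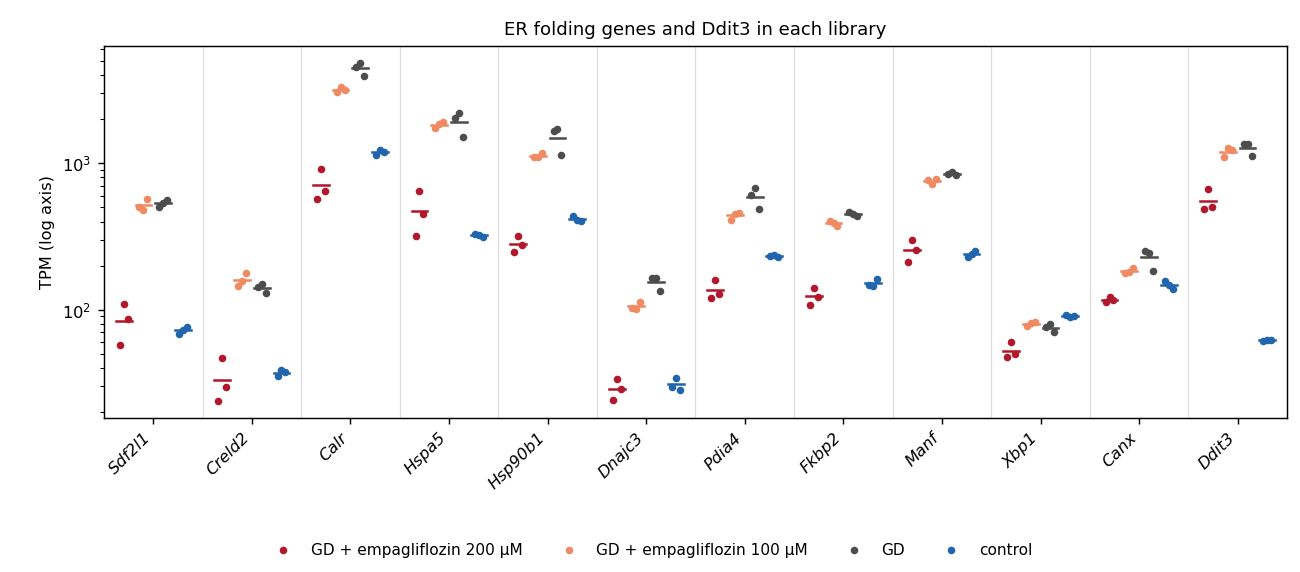
TPM on a log axis of 11 ER folding genes and Ddit3 in each library, as points with a bar at the group mean, for 200 µM, 100 µM, GD and control from left to right within each gene. The points at 200 µM lie below those at 100 µM in every gene shown, and for Calr, Hsp90b1, Pdia4, Fkbp2, Xbp1 and Canx below control too.

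The 8 members with the ERSE letters all fell, with log2 fold changes between -2.27 and -0.61 and a median of -1.92. Of the 18 members with a promoter that lacked the letters, 15 fell, with a median of -0.65. Among tested genes outside the list, 7 held the letters and 2 of them fell, with a median of 0.000486. Of all tested genes 8.06% were called lower, and the median was 0.12.

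The stress branch beside the ER genes was mixed. Of 24 tested regulators and markers of the integrated stress response, 7 rose, close to the 25.7% of all tested genes. In the same list 8 fell, above the 8.06% of all tested genes, and the median log2 fold change was -0.0015. After median-of-ratios scaling, which sets the libraries to a shared typical gene and called 18.7% of all tested genes higher and 18.4% lower, 4 rose and 11 fell. Ddit3, which encodes CHOP, a factor linked to stress-induced death, had 490, 668 and 501 TPM at 200 µM, against 1093, 1262 and 1237 TPM at 100 µM, 1344, 1348 and 1119 TPM in GD and 61.4 to 62.2 TPM in control. The doses did not overlap, and every library at 200 µM still lay far above control (log2 fold change -1.13, SE 0.11, adjusted p = 9.42e-06).

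Atf3, a stress-induced repressor, had 16.7, 21.9 and 18.8 TPM at 200 µM, against 33.4, 34.4 and 35.2 TPM at 100 µM (log2 fold change -0.82, adjusted p = 3.37e-05). The table holds a second row of the same gene, which fell too (log2 fold change -1.05, adjusted p = 0.00231), so the split of its reads is uncertain. Atf4, the translationally controlled factor upstream of both, did not fall. It had 837, 973 and 878 TPM at 200 µM, against 715, 754 and 762 TPM at 100 µM (log2 fold change 0.27, adjusted p = 0.00346), and the call was lost with median-of-ratios scaling (log2 fold change 0.11). Ddit4, an inhibitor of the growth kinase complex mTORC1 that stress factors induce, rose, with 100, 84.4 and 74.8 TPM at 200 µM against 33.9, 40.2 and 36.4 TPM at 100 µM (log2 fold change 1.20, adjusted p = 3.56e-06).

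Of 20 cytosolic aminoacyl-tRNA synthetases, the enzymes that load tRNAs and many of which ATF4 induces, 1 rose and 6 fell, and 0 rose and 12 fell after scaling. The shares over all tested genes were 25.7% higher and 8.06% lower, and 18.7% and 18.4% after scaling. Wars, the tryptophan enzyme, had 79.3, 115 and 90.7 TPM at 200 µM, against 136, 153 and 152 TPM at 100 µM (log2 fold change -0.64, adjusted p = 0.00114). Of 10 genes of the hexosamine pathway, which makes the sugar donor for glycosylation, 1 rose and 5 fell, and 8 fell after scaling. Amdhd2, an enzyme that returns amino sugar to glycolysis, was at 51.0, 57.2 and 45.5 TPM at 200 µM and 93.7, 96.7 and 94.2 TPM at 100 µM. Its libraries did not overlap (log2 fold change -0.88, adjusted p = 3.77e-06). The member that rose was Mgea5, the enzyme that removes O-GlcNAc, with a log2 fold change of 0.99 (adjusted p = 6.09e-05).

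Over all genes, 4159 of 12314 passed (33.8%), of which 3167 rose (25.7% of tested genes) and 992 fell (8.06%). Most changes were small, with a median absolute log2 fold change of 0.50 among the genes that passed, and 399 rose and 76 fell by at least 2-fold. The median of all tested genes was 0.12, and after median-of-ratios scaling 2308 rose and 2265 fell, so the share of higher calls was 76.1% unscaled and 50.5% scaled. The 2 scalings called 2306 genes higher and 987 lower alike and 0 in opposite directions. Of the tested genes, 37.0% had all libraries at 200 µM above all at 100 µM and 12.7% the reverse. Pairwise correlations of log2 values were 0.970 to 0.981 between the doses, 0.992 to 0.994 within 200 µM and 0.991 to 0.994 within 100 µM. The first principal component of the 6 libraries separated the doses with 68.1% of the variance. Depth is unknown, since TPM keep none. In bulk samples, fewer cells of a kind and less RNA per cell cannot be told apart.

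**Figure D2:**
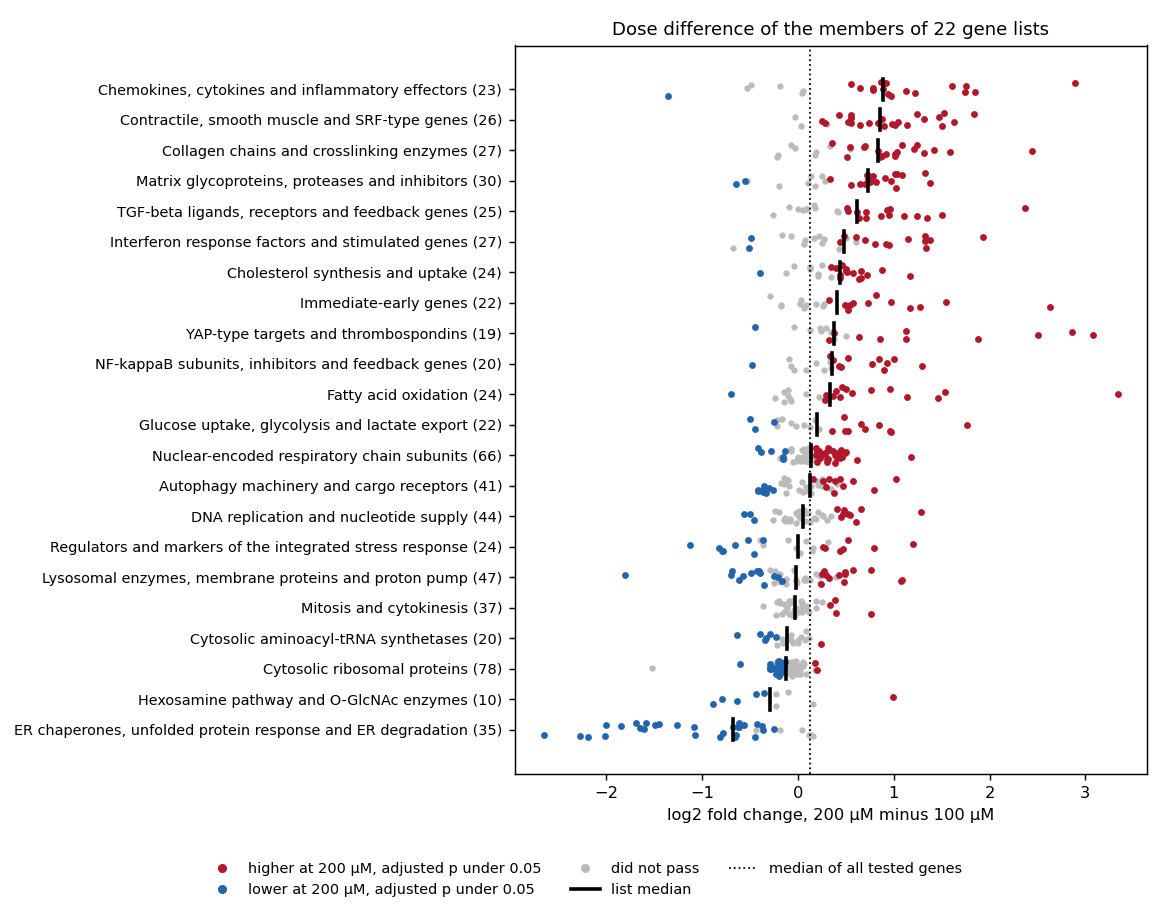
Log2 fold change, 200 µM minus 100 µM, of each tested member of 22 gene lists, with the number of members in brackets, a black bar at the list median and a dotted line at the median of all tested genes, 0.12. The ER list lies furthest to the left with a median of -0.68, and the inflammatory, contractile and collagen lists lie to the right with medians of 0.89, 0.85 and 0.84.

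Genes of the contractile apparatus rose. Of 26 tested members 23 rose and 0 fell, where 25.7% of all tested genes were called higher, and the median log2 fold change was 0.85. After scaling 21 rose and 0 fell, where 18.7% and 18.4% of all tested genes did. Acta2, smooth muscle actin, had 986, 781 and 910 TPM at 200 µM, against 310, 306 and 343 TPM at 100 µM, 155, 156 and 165 TPM in GD and 5758 to 6072 TPM in control. The groups did not overlap and the order was GD, 100 µM, 200 µM, control (log2 fold change 1.47, SE 0.08, adjusted p = 1.2e-07). The same 26 members all fell in GD against control, with a median of -2.84. Of all tested genes 67.6% were lower in GD, and the median was -0.65.

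Tagln, a calponin-family protein of smooth muscle chosen after its values were seen, had 488, 385 and 381 TPM at 200 µM, against 122, 190 and 133 TPM at 100 µM (log2 fold change 1.5, adjusted p = 6.08e-06). Myh11, smooth muscle myosin, had 7.07, 7.55 and 7.80 TPM at 200 µM, against 1.28, 0.90 and 2.05 TPM at 100 µM (log2 fold change 1.84, adjusted p = 2.14e-06). Zyx, zyxin of focal adhesions, had 137, 124 and 129 TPM at 200 µM, against 50.4, 56.0 and 56.0 TPM at 100 µM (log2 fold change 1.25, adjusted p = 2.55e-07). At 200 µM these 3 genes stayed under their control levels. Cnn2, a calponin that binds actin, rose by 0.98 on the log2 scale (adjusted p = 1.18e-06), and Actg1, a cytoplasmic actin, by 0.55 (adjusted p = 3.67e-06). Reads of actin genes can be split between near-identical copies, so their levels are uncertain.

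Many such genes are controlled by serum response factor (SRF), which binds CArG boxes and also drives immediate-early genes. CArG letters stood in 3 of 20 contractile promoters (15%) and 4 of 16 immediate-early promoters (25%), against 548 of all 33469 (1.64%). The last share covers promoters of untested genes too. The letters also stood in 2 of 13 skeletal muscle promoters (15.4%) and in 2 of 22 promoters of stress response regulators (9.09%). The latter were Eif2s1 and Herpud1, which fell between the doses. The promoter windows of 3 of the contractile and immediate-early genes, which differed between the doses, are given with the box in capitals. The search was chosen after values were known.
Cnn2, chr7:10370368-10370389, minus strand: tccacgCCTTATAAGGgcattt
Actg1, chr10:106121026-106121047, minus strand: agatcgCCATATATGGacatgt
Zfp36, chr1:92799125-92799146, minus strand: gccgccCCATAAAAGGcgaaag

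Of 22 immediate-early genes, 12 rose and 0 fell, where 25.7% and 8.06% of all tested genes did, and the median log2 fold change was 0.41. Egr1, a growth-induced factor, had 18.9, 11.7 and 16.4 TPM at 200 µM, against 1.26, 1.88 and 1.87 TPM at 100 µM, with 0.59 to 0.99 TPM in GD and 55.0 to 61.9 TPM in control. All libraries at 200 µM were far above those at 100 µM and in GD (log2 fold change 2.63, SE 0.16, adjusted p = 3.49e-07). Zfp36, which destabilises cytokine mRNAs, had 22, 17.1 and 16.2 TPM at 200 µM, against 8.53, 9.54 and 8.40 TPM at 100 µM (log2 fold change 0.97, adjusted p = 3.53e-05). Ier2 had 70.6, 61.9 and 67.5 TPM at 200 µM, against 28.4, 29.2 and 29.6 TPM at 100 µM (log2 fold change 1.17, adjusted p = 4.28e-07). Of the CArG genes, Dusp5, a phosphatase of the kinase ERK, did not pass (log2 fold change -0.17, adjusted p = 0.312), while Srf itself rose by 0.88 (adjusted p = 7.8e-05).

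Targets of the growth coactivator YAP were split between a few large changes and many small ones. Of 19 tested members 10 rose and 1 fell, where 25.7% and 8.06% of all tested genes did. The median log2 fold change was 0.38, and 6 members rose by at least 2-fold, where 399 of all 12314 tested genes did. Cyr61, a matrix-bound growth signal, had 52.5, 47.1 and 47.9 TPM at 200 µM, against 3.34, 5.89 and 6.04 TPM at 100 µM, 4.25, 6.69 and 5.06 TPM in GD and 297 to 315 TPM in control (log2 fold change 3.07, SE 0.17, adjusted p = 1.98e-07). The libraries at 100 µM overlapped those in GD, and those at 200 µM stood apart from both.

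Ctgf, its relative, had 98.5, 135 and 90.6 TPM at 200 µM, against 12.3, 27.1 and 17.2 TPM at 100 µM, with 584 to 592 TPM in control (log2 fold change 2.51, adjusted p = 5.95e-06). Thbs1, thrombospondin 1, a matrix protein that activates TGF-beta, had 77.4, 63.0 and 64.2 TPM at 200 µM, against 7.99, 12.2 and 6.22 TPM at 100 µM and 4.48 to 6.53 TPM in GD. Control cells had 1608 to 1717 TPM of Thbs1, so the level at 200 µM was high only beside the other deprived groups (log2 fold change 2.86, SE 0.18, adjusted p = 3.49e-07). Ankrd1, a nuclear ankyrin protein of stretched muscle, varied more, with 99, 49.2 and 35.3 TPM at 200 µM against 10.1, 27.1 and 10.9 TPM at 100 µM (log2 fold change 1.87, SE 0.36, adjusted p = 0.00143). The member that fell was Wwtr1, which encodes the YAP partner TAZ (log2 fold change -0.45, adjusted p = 0.00404).

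**Figure D3:**
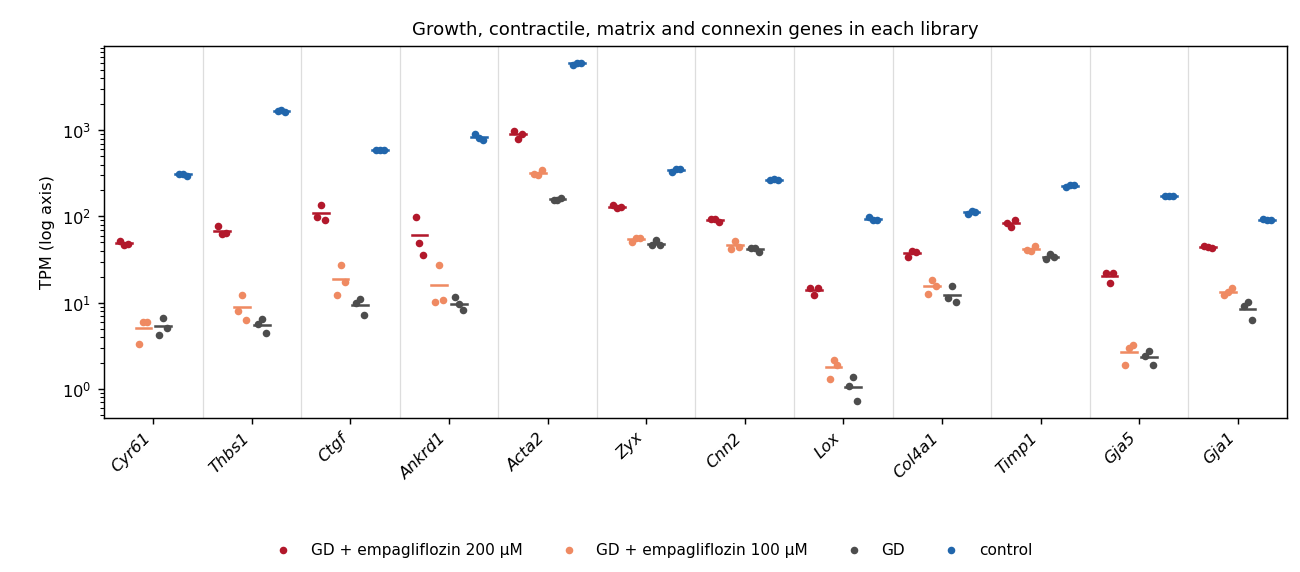
TPM on a log axis of 12 growth, contractile, matrix and connexin genes in each library, as points with a bar at the group mean, for 200 µM, 100 µM, GD and control from left to right within each gene. For Acta2 the means run from GD through 100 µM and 200 µM to control, and in every gene shown the points at 200 µM lie between those at 100 µM and control.

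Genes of the extracellular matrix rose along with them. Of 27 collagen chains and crosslinking enzymes 19 rose and 0 fell (median log2 fold change 0.84). Of 30 matrix glycoproteins, proteases and inhibitors 21 rose and 2 fell (median 0.74), and of 25 TGF-beta genes 15 rose and 0 fell (median 0.61). Of all tested genes 25.7% rose and 8.06% fell. After scaling, in the same order, 18, 21 and 15 rose and 2, 2 and 1 fell, where 18.7% and 18.4% of all tested genes did. Lox, the enzyme that crosslinks collagen, had 14.7, 12.3 and 14.8 TPM at 200 µM, against 1.30, 2.16 and 1.87 TPM at 100 µM (log2 fold change 2.44, SE 0.14, adjusted p = 2.67e-07). Its libraries at 200 µM were all above 12 TPM and no library at 100 µM or in GD reached 3.

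Col4a1, a basement membrane collagen, had 33.8, 40.0 and 39.1 TPM at 200 µM, against 12.6, 18.3 and 15.4 TPM at 100 µM (log2 fold change 1.24, adjusted p = 4.14e-05). Timp1, an inhibitor of matrix metalloproteinases, had 83.2, 76.2 and 91.1 TPM at 200 µM, against 41.3, 39.3 and 45.9 TPM at 100 µM (log2 fold change 0.97, adjusted p = 2.74e-06). Fst, follistatin, which binds activins, had 30.0, 15.8 and 23.2 TPM at 200 µM, against 2.68, 4.32 and 3.64 TPM at 100 µM (log2 fold change 2.37, adjusted p = 2.27e-06). The 2 matrix members that fell were Spp1, osteopontin (log2 fold change -0.55, adjusted p = 0.000226), and Lama4, a laminin chain (-0.65, adjusted p = 0.00167).

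Fibroblast markers moved in the same direction. The 6 markers summed to 167 to 227 TPM at 200 µM and 83.7 to 133 TPM at 100 µM, nearly all of it the surface protein Thy1, while Tcf21, a defining fibroblast factor, was at 0 in all 12 libraries. Pdgfra, another of the markers, ran the other way, at 0.31 to 0.34 TPM at 200 µM and 0.52 to 0.70 TPM at 100 µM. The part of fibroblast-type cells in the matrix result was not tested.

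Of the connexins, the channels that couple cells, 2 are on the list of cardiac muscle genes. Gja5, connexin 40, had 22.4, 16.7 and 22.2 TPM at 200 µM, against 1.87, 3.0 and 3.21 TPM at 100 µM and 170 to 174 TPM in control (log2 fold change 2.54, SE 0.15, adjusted p = 3.49e-07). Gja1, connexin 43, had 45.8, 44.7 and 43.5 TPM at 200 µM, against 12.2, 13.2 and 14.8 TPM at 100 µM (log2 fold change 1.67, adjusted p = 1.71e-06). Each gene's libraries at 200 µM stood between those at 100 µM and control. Of 12 cardiac muscle genes tested 5 rose and 0 fell, and of 14 skeletal muscle genes 5 rose and 0 fell, with 3 higher after scaling. The share of all tested genes that rose was 25.7%, and 18.7% after scaling, so the scaled skeletal count was close to it.

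Inflammatory genes formed the list with the highest median, 0.89. Of 36 chemokines, cytokines and effectors with values, 23 passed the filter on low values. Of these 23, 17 rose and 1 fell, where 25.7% and 8.06% of all tested genes did. After scaling 14 rose and 2 fell, where 18.7% and 18.4% of all tested genes did. The filter asked for 1 TPM in 3 of the 12 libraries. It can thus admit a gene through its libraries at 200 µM alone, as it did Tnf. The counts and the median rest in part on such genes. Without the filter 18 rose, and with the filter at 5 TPM 13 rose. In 13 of the 23 tested, all 3 libraries at 200 µM lay above all 9 others, where 3.08% of all tested genes did so. Tnf, the cytokine TNF, had 5.75, 3.56 and 5.61 TPM at 200 µM, against 1.16, 0.29 and 0.96 TPM at 100 µM, and no library in GD or control passed 0.22 TPM (log2 fold change 1.74, SE 0.19, adjusted p = 2.35e-05). Csf3, a growth factor for neutrophils, had 4.51, 3.87 and 5.82 TPM at 200 µM, against 0.58, 0.50 and 1.72 TPM at 100 µM, and was listed at 0 in the 3 control libraries. Fold changes of such low genes are understated, because they are on the log2(TPM + 1) scale.

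Ptgs2, cyclooxygenase 2, which makes prostaglandins, had 14, 13.2 and 20.5 TPM at 200 µM, against 4.33, 2.85 and 3.77 TPM at 100 µM and 9.37 to 11.7 TPM in control (log2 fold change 1.85, adjusted p = 2.44e-05). Nos2, inducible nitric oxide synthase, had 28.4, 25.7 and 43.6 TPM at 200 µM, against 10.0, 4.84 and 13.1 TPM at 100 µM, 0.92, 0.66 and 0.71 TPM in GD and at most 0.09 TPM in control (log2 fold change 1.76, adjusted p = 0.000282). Il6, interleukin 6, had 26.9, 28.9 and 34.9 TPM at 200 µM, against 16.2, 15.7 and 19.5 TPM at 100 µM (log2 fold change 0.79, adjusted p = 0.000608). Both genes had their highest 3 libraries of all 12 at 200 µM, and both were chosen after their values were seen.

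Cxcl12, a chemokine of stromal cells, was highest in control. It had 286, 233 and 260 TPM at 200 µM, against 33.3, 28.2 and 42.2 TPM at 100 µM, 8.1, 9.0 and 8.23 TPM in GD and 531 to 550 TPM in control (log2 fold change 2.89, SE 0.12, adjusted p = 4.5e-08). The groups did not overlap. Ccl2, which draws monocytes, had 2785, 2171 and 3374 TPM at 200 µM, against 1865, 1073 and 1591 TPM at 100 µM (log2 fold change 0.89, adjusted p = 0.00359). The member that fell was Csf2, the growth factor GM-CSF, with 2.96, 4.63 and 4.08 TPM at 200 µM, against 12.1, 7.66 and 15.6 TPM at 100 µM (log2 fold change -1.35, adjusted p = 0.00198), and its libraries at 100 µM were the highest of all 12.

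Regulators of NF-kappaB, the factor that drives many of these genes, rose by less. Of 20 members 11 rose and 1 fell, where 25.7% and 8.06% of all tested genes did. With median-of-ratios scaling 7 rose, where 18.7% of all tested genes did. In 9 of the 20, all libraries at 200 µM lay above all 9 others, where 3.08% of all tested genes did so. Nfkbiz, a coactivator of cytokine genes, had 61.7, 58.1 and 61.9 TPM at 200 µM, against 37.6, 26.5 and 32.9 TPM at 100 µM (log2 fold change 0.90, adjusted p = 0.000228). The inhibitors of the pathway were among those that rose, with Tnfaip3, the deubiquitinase A20, at 7.74, 6.20 and 7.21 TPM at 200 µM and 3.75, 3.02 and 2.37 TPM at 100 µM. Its partner Tnip1 had 111, 98.2 and 140 TPM at 200 µM, against 50.9, 37.0 and 52.4 TPM at 100 µM. The log2 fold changes were 1.00 for Tnfaip3 (adjusted p = 0.000155) and 1.29 for Tnip1 (adjusted p = 1.99e-05). The member that fell was Nfkbib, an inhibitor of the factor (log2 fold change -0.47, adjusted p = 0.00322).

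Of 27 interferon response genes 13 rose and 2 fell, where 25.7% and 8.06% of all tested genes did, and the median log2 fold change was 0.48. Irf7, the factor that amplifies interferon, had 45.4, 32.4 and 48.1 TPM at 200 µM, against 15.2, 15 and 17.7 TPM at 100 µM (log2 fold change 1.32, adjusted p = 1.34e-05). Ifit1, an antiviral RNA-binding protein, had 9.59, 4.13 and 16.5 TPM at 200 µM, against 1.61, 1.70 and 1.46 TPM at 100 µM, a wide spread at 200 µM with no overlap (log2 fold change 1.93, SE 0.31, adjusted p = 0.000475). The members that fell were Isg20, an exonuclease (-0.49, adjusted p = 0.0431), and Psmb8, an immunoproteasome subunit (-0.51, adjusted p = 0.0467), and both calls were lost in several alternatives. Of 5 leukocyte markers 4 were under 1 TPM in all 6 drug libraries, and the 5 summed to 0.79 to 2.00 TPM at 200 µM and 0.26 to 0.84 TPM at 100 µM. Ptprc, the defining marker of leukocytes, was at most at 0.01 TPM in any of the 6, and most of the sum was Cd68, a lysosomal protein of macrophages. On a longer list of 13 leukocyte genes 3 passed the filter on low values and 2 rose, Cd68 and Cd14. Cd14, a receptor for bacterial lipopolysaccharide known from monocytes, had 15.5, 11.5 and 11.4 TPM at 200 µM, against 5.64, 6.59 and 6.20 TPM at 100 µM and 33.1 to 35.6 TPM in control (log2 fold change 0.94, adjusted p = 0.000726). The part of such cells in the inflammatory and interferon values was not tested.

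**Figure D4:**
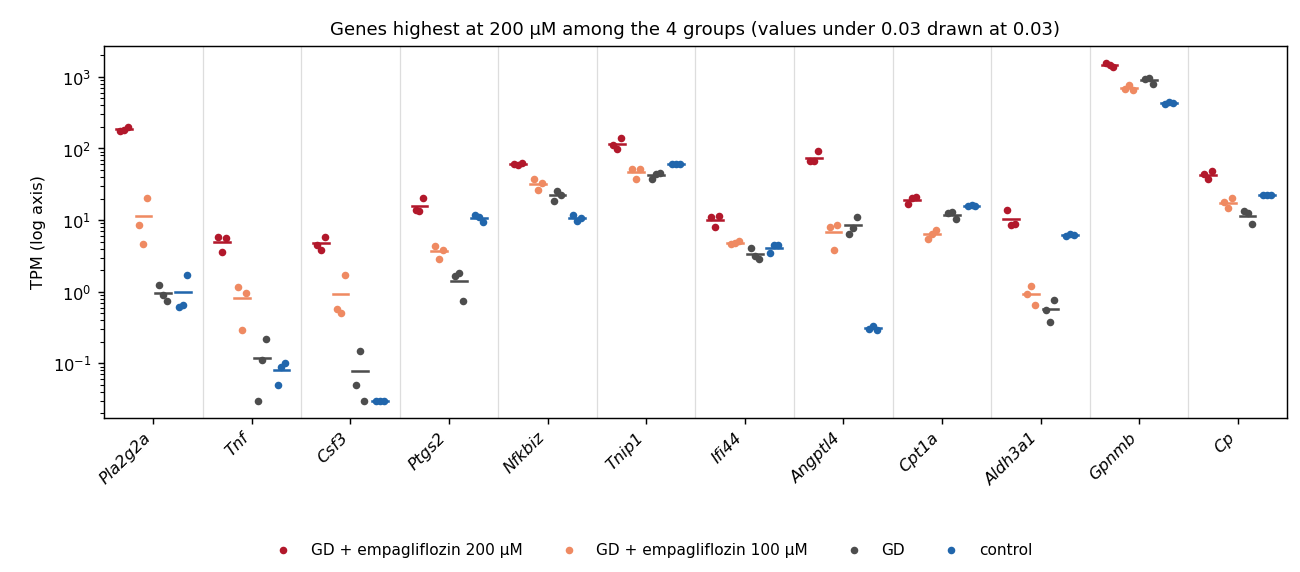
TPM on a log axis of 12 genes whose mean was highest at 200 µM among the 4 groups, chosen after their values were seen, as points with a bar at the group mean, for 200 µM, 100 µM, GD and control from left to right within each gene. The points of Tnf at 200 µM lie between 3.56 and 5.75 TPM, and those of Pla2g2a between 176 and 197 TPM, above every other library.

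The largest rise of all named genes was that of Pla2g2a, a secreted phospholipase A2 that inflammation induces. It had 176, 184 and 197 TPM at 200 µM, against 8.65, 4.66 and 20.4 TPM at 100 µM, 1.22, 0.91 and 0.73 TPM in GD and 0.62, 0.66 and 1.69 TPM in control (log2 fold change 4.15, SE 0.35, adjusted p = 3.64e-06). The libraries at 100 µM also stood above GD and control, and those at 200 µM were tight among themselves. The log2 fold change of GD minus control was 0.01.

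Genes of fatty acid oxidation rose in part. Of 24 members 14 rose and 1 fell, where 25.7% and 8.06% of all tested genes did, and the median log2 fold change was 0.33. After scaling, however, 10 rose and 6 fell, where 18.7% and 18.4% of all tested genes did. Angptl4, which inhibits lipoprotein lipase and is a target of the fatty acid sensors PPAR, had 66.8, 66.7 and 90.9 TPM at 200 µM, against 8.02, 3.77 and 8.47 TPM at 100 µM, 6.36, 7.75 and 11.2 TPM in GD and 0.29 to 0.33 TPM in control (log2 fold change 3.34, SE 0.24, adjusted p = 1.11e-06). The libraries at 100 µM and in GD overlapped, and those at 200 µM stood above both.

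Cpt1a, the enzyme that admits fatty acids to mitochondria, had 16.6, 20.3 and 21.0 TPM at 200 µM, against 5.49, 6.32 and 7.26 TPM at 100 µM and 12.5, 13.1 and 10.3 TPM in GD. Its libraries at 100 µM were the lowest of all 12 and those at 200 µM the highest (log2 fold change 1.46, SE 0.12, adjusted p = 2.81e-06). Hadh and Acadvl, enzymes of the oxidation cycle, rose by 1.54 (adjusted p = 1.34e-05) and 1.14 (adjusted p = 1.75e-05) on the log2 scale. The member that fell was Cpt1c, the brain-type relative of Cpt1a (log2 fold change -0.70, adjusted p = 0.00053).

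Cholesterol synthesis and uptake rose in 15 of 24 genes and fell in 1, where 25.7% and 8.06% of all tested genes did. The median log2 fold change was 0.44, and leaving out replicate 1 of 200 µM left 9 higher. After scaling 10 rose and 3 fell, where 18.7% and 18.4% of all tested genes did. Hmgcs1, an early enzyme of the pathway, had 28.6, 19.7 and 18.3 TPM at 200 µM, against 12.4, 16.6 and 11.8 TPM at 100 µM (log2 fold change 0.66, adjusted p = 0.0208), a call that was lost without replicate 1 of 200 µM, or replicate 1 or 3 of 100 µM. The member that fell was Insig1, which holds the pathway back (log2 fold change -0.40, adjusted p = 0.0039).

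Of 22 genes of glucose uptake, glycolysis and lactate export 10 rose and 3 fell, where 25.7% and 8.06% of all tested genes did. After scaling 9 rose and 6 fell, where 18.7% and 18.4% of all tested genes did. Ldha, lactate dehydrogenase A, had 233, 234 and 204 TPM at 200 µM, against 104, 115 and 120 TPM at 100 µM and 829 to 872 TPM in control (log2 fold change 0.97, SE 0.07, adjusted p = 1.26e-06). Slc2a1, the glucose transporter GLUT1, had 11.8, 20.5 and 17.5 TPM at 200 µM and 14.9, 10.8 and 17.7 TPM at 100 µM, which overlapped (log2 fold change 0.18, adjusted p = 0.488). Txnip, which glucose induces and which limits its uptake, was under 1 TPM in all deprived libraries, against 56.3 to 62.0 TPM in control, so its dose difference rested on values of 0.35 to 0.65 TPM at 200 µM and 0.09 to 0.18 TPM at 100 µM (log2 fold change 0.36, adjusted p = 0.0271).

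In mitochondria, 30 of 66 nuclear-encoded respiratory chain subunits rose and 6 fell, where 25.7% and 8.06% of all tested genes did. After scaling 9 rose and 8 fell, both below the 18.7% and 18.4% of all tested genes. The rise of that group was thus not seen with that scaling. Uqcrh, a hinge subunit of complex III, had 297, 212 and 265 TPM at 200 µM, against 117, 119 and 101 TPM at 100 µM (log2 fold change 1.18, adjusted p = 8.83e-06). Uqcrq, another subunit of the same complex, had 860, 884 and 867 TPM at 200 µM, against 1200, 1135 and 1151 TPM at 100 µM (log2 fold change -0.42, adjusted p = 3.2e-05). Subunits of 1 complex thus moved apart. Of 72 mitochondrial ribosomal proteins 18 rose and 7 fell, close to the 25.7% and 8.06% of all tested genes and so no result about the group, and after scaling 7 rose and 14 fell.

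Cytosolic ribosomal proteins, whose reads can be shared with pseudogene copies, differed by small amounts. Of 78 members 2 rose and 25 fell, where 25.7% and 8.06% of all tested genes did. After scaling 0 rose and 26 fell, where 18.7% and 18.4% of all tested genes did. The median log2 fold change of the members was -0.13 unscaled. Without replicate 1 of 100 µM 10 members fell, and without replicate 1 of 200 µM 13 did. Their share of all TPM was 33.2% ± 0.888 with 200 µM and 35.8% ± 1.67 with 100 µM (SD over 3 libraries in each group), with an exact two-sided permutation p of 0.1, the smallest that 3 against 3 allows. The difference of -2.59 percentage points became -1.65 without replicate 1 of 100 µM. In control they took 17.7 to 18.3%.

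Among the sodium and glucose carriers, Slc5a2, the drug's target SGLT2, stood at 2.06, 1.03 and 0.91 TPM at 200 µM and 0.70, 0.69 and 0.50 TPM at 100 µM. The difference (log2 fold change 0.49, adjusted p = 0.0337) was lost when any library at 100 µM or replicate 1 of 200 µM was left out. Slc5a1, its relative SGLT1, did not pass the filter on low values, with 0.02 to 0.06 TPM at 200 µM and at most 0.04 TPM at 100 µM. Slc17a1, a sodium and phosphate cotransporter, was the member that fell, with 40.9, 80.5 and 82.6 TPM at 200 µM, against 328, 118 and 523 TPM at 100 µM (log2 fold change -2.06, SE 0.41, adjusted p = 0.00205). Its libraries at 100 µM differed widely among themselves.

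Autophagy genes, by which cells digest their own parts, were higher in 11 of 41, close to the 25.7% of all tested genes, and lower in 8, above the 8.06% of all tested genes. After scaling 6 were higher and 14 lower, against 18.7% and 18.4% of all tested genes. Vmp1, a membrane protein that starts autophagosomes, had 184, 163 and 171 TPM at 200 µM, against 82.7, 94.7 and 76.5 TPM at 100 µM (log2 fold change 1.02, adjusted p = 2.98e-06). Sqstm1, the cargo receptor p62, had 1225, 1516 and 1279 TPM at 200 µM, against 1765, 1710 and 1857 TPM at 100 µM (log2 fold change -0.41, adjusted p = 0.000896). Map1lc3b, which coats autophagosomes, fell by 0.34 on the log2 scale (adjusted p = 0.00072). Becn1, beclin 1, did not pass (log2 fold change -0.13, adjusted p = 0.27), but was called lower with median-of-ratios scaling (log2 fold change -0.29).

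Of 47 lysosomal genes 13 rose, close to the 25.7% of all tested genes, and 13 fell, above the 8.06% of all tested genes. After scaling 8 rose, close to the 18.7% of all tested genes, and 23 fell, above the 18.4%. Gpnmb, a lysosomal membrane glycoprotein, had 1582, 1477 and 1391 TPM at 200 µM, against 675, 782 and 653 TPM at 100 µM (log2 fold change 1.08, adjusted p = 1.39e-06), and its libraries at 200 µM were the highest of all 12. Mcoln3, an endolysosomal calcium channel, had 8.36, 14.4 and 11.7 TPM at 200 µM, against 42.2, 32.2 and 53.2 TPM at 100 µM, and 1.11 to 1.86 TPM in control (log2 fold change -1.80, adjusted p = 3.58e-05).

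Proliferation genes mostly did not pass. Of 37 mitosis genes 4 rose and 0 fell (median log2 fold change -0.03), but after scaling 3 rose and 4 fell. Of 44 DNA replication genes 9 rose and 3 fell, and after scaling 9 rose and 7 fell. In both lists the share that rose without scaling was below the 25.7% of all tested genes. After scaling 18.7% of all tested genes rose and 18.4% fell. The scaled share of DNA replication genes that rose was slightly above the former, and that of mitosis genes below it. Rrm2, a subunit of ribonucleotide reductase, had 13.7, 13.5 and 13.8 TPM at 200 µM, against 5.09, 5.18 and 4.86 TPM at 100 µM, far below the 108 to 122 TPM of control (log2 fold change 1.28, adjusted p = 8.9e-06). Ccnd1, cyclin D1, had 46.2, 38.5 and 36.0 TPM at 200 µM, against 11.9, 18.2 and 12.7 TPM at 100 µM, with 299 to 341 TPM in control (log2 fold change 1.45, adjusted p = 4.61e-05).

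Other named genes stood outside the lists. Dapk3, a kinase linked to cell death and to myosin, had 21.1, 24.2 and 21.3 TPM at 200 µM, against 70.0, 95.4 and 101 TPM at 100 µM, with 64.8 to 77.8 TPM in GD and 87.7 to 91.8 TPM in control. Its libraries at 200 µM were the lowest of all 12 (log2 fold change -1.94, SE 0.12, adjusted p = 3.49e-07). Plac1, a gene known from placenta, had 2.73, 4.77 and 3.16 TPM at 200 µM, against 21.6, 25.5 and 23.9 TPM at 100 µM (log2 fold change -2.46, adjusted p = 3.92e-07).

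Aldh3a1, an aldehyde dehydrogenase, had 13.6, 8.41 and 8.72 TPM at 200 µM, against 0.93, 1.19 and 0.66 TPM at 100 µM and 5.90 to 6.34 TPM in control (log2 fold change 2.52, adjusted p = 5.44e-07). Asgr1, a subunit of the hepatic asialoglycoprotein receptor, had 9.09, 9.38 and 14.3 TPM at 200 µM, against 0.82, 0.15 and 1.53 TPM at 100 µM (log2 fold change 2.75, adjusted p = 4.14e-06). The last 2 genes were highest of all 12 libraries at 200 µM. Car3, a carbonic anhydrase of muscle, had 1326, 541 and 646 TPM at 200 µM, against 114, 223 and 89.8 TPM at 100 µM (log2 fold change 2.55, adjusted p = 6.91e-05), and replicate 1 of 200 µM stood well above the other two.

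Some genes differed from GD in opposite directions at the 2 doses, and both comparisons share the GD libraries. Fez1, an adaptor for transport along microtubules, had 0.99, 2.51 and 1.29 TPM at 200 µM, against 12.8, 14.4 and 16.6 TPM at 100 µM, with 7.66 to 8.13 TPM in GD and 0.64 to 0.98 TPM in control. Its log2 fold change against GD was -1.83 at 200 µM (adjusted p = 5.3e-06) and 0.79 at 100 µM (adjusted p = 0.012). Cpt1a, above, stood at 0.65 against GD at 200 µM (adjusted p = 0.00083) and -0.81 at 100 µM (adjusted p = 0.0013). Adamts7, a matrix protease, stood at 1.5 at 200 µM (adjusted p = 1.4e-06) and -0.53 at 100 µM (adjusted p = 0.013). Gsn, gelsolin, which severs actin, stood at 0.57 at 200 µM (adjusted p = 0.0031) and -0.51 at 100 µM (adjusted p = 0.021).

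The dose difference ran mostly against the difference between GD and control. GD against control shares no library with 200 µM against 100 µM. GD and control differed in 81.5% of tested genes, with 67.6% lower and 13.98% higher in GD. Of the 3738 genes called in both comparisons, 3398 (90.9%) changed in opposite directions. The 2813 genes higher at 200 µM and lower in GD were 88.8% of those higher at 200 µM and 33.8% of those lower in GD. The 585 genes lower at 200 µM and higher in GD were 59.0% of those lower at 200 µM and 34.0% of those higher in GD. Across genes, which are not independent replicates, the 2 log2 fold changes had a Pearson r of -0.57 and a Spearman rho of -0.54. With median-of-ratios scaling the opposite share was 88.2%. Of the genes then higher at 200 µM, 75.1% were lower in GD, where 38.5% of all tested genes were with that scaling. Of those then lower at 200 µM, 76.5% were higher in GD, where 38.5% of all tested genes were.

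**Figure D5:**
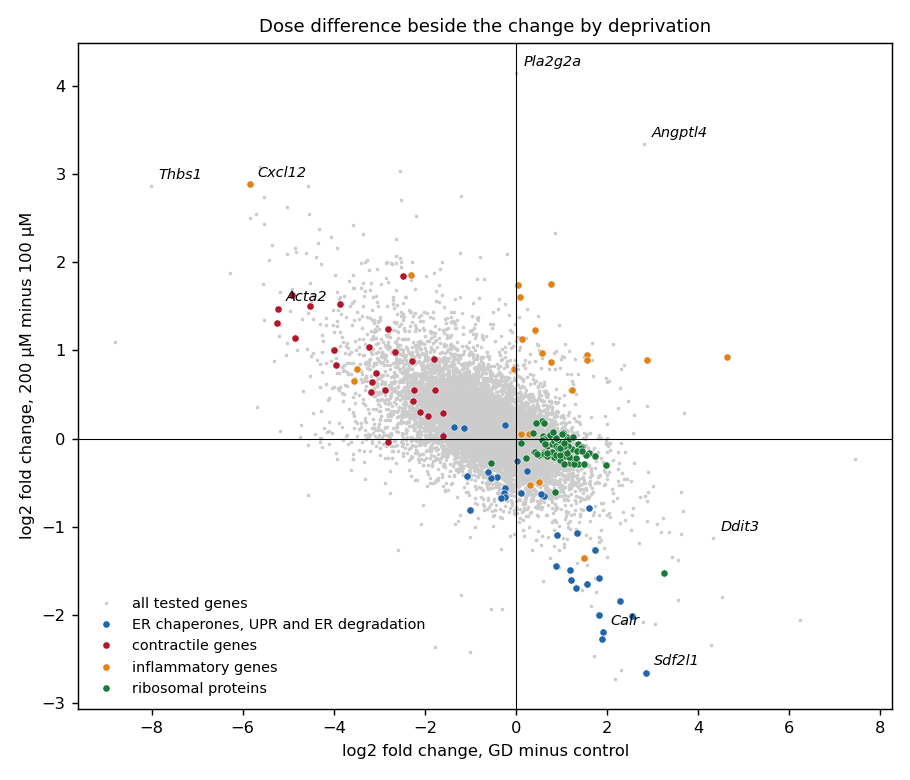
Log2 fold change 200 µM minus 100 µM (vertical) beside GD minus control (horizontal) for every tested gene, with 4 gene lists in colour and 8 genes named. ER genes lie low and mostly to the right, contractile genes high and to the left, and inflammatory genes high, mostly at or to the right of 0, with Cxcl12 among those to the left.

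By list and without scaling, the ER genes had a median log2 fold change of 0.61 in GD against control and -0.68 between the doses. Over all tested genes these medians were -0.65 and 0.12. Contractile genes had -2.84 and 0.85, and collagens -2.81 and 0.84. The inflammatory list stood at 0.41 in GD against control and at 0.89 between the doses, in the same direction. Counted against GD, 43.4% of tested genes were called at 200 µM and 13.0% at 100 µM.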

How the data were processed

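Per the submitters' processing notes reads were handled with HISAT2 and StringTie. Tool versions, build and annotation: not given in the sources used here. Values are TPM per gene, as the authors deposited them in 1 table of 35966 rows for the 12 libraries. Rows of a repeated symbol (472) were kept apart. A gene was tested if 3 or more of the 12 libraries reached 1 TPM (12314 genes), on log2(TPM + 1), with limma 3.58.1 in R 4.3.3 (trended variance, 4 group means, all 12 libraries sharing 1 estimate of spread), and p-values were adjusted by Benjamini-Hochberg over all tested genes, with a threshold of 0.05. The method was tested on simulated data. TPM keep no read depth, so no counting interval is given.

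Genes were named by rule: the 14 highest and 14 lowest among genes of at least 5 TPM that passed with no overlap, up to 4 members of each of 46 lists by p, a fixed set of genes tied to the drug and to glucose, 5 genes that moved oppositely from GD at the 2 doses, and 5 with the largest change by deprivation. Lists, members and rules were chosen with earlier results of these data known. Canx, Xbp1, Ero1b, Actg1, Tagln, Nos2, Il6, Ccl2, Csf2, Nfkbib, Isg20, Psmb8, Cpt1c, Insig1, Spp1, Lama4, Wwtr1, Dusp5, Srf and the second Atf3 row were added after their values were seen. Alternatives changed scaling, filter, pseudocount, weights, block, threshold and libraries. No set test was run. Some genes and 1 promoter sequence are not reported here.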

Additional observations from a re-analysis of the deposited data

How the results depend on the processing

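The count of lower genes was higher with scaling, at 2265 by median-of-ratios and 2456 by quantile normalization, against 992 unscaled. NF-kappaB members higher numbered 7 with median-of-ratios, and ribosomal proteins lower 14 with no filter. Interferon members higher numbered 8 with the filter at 5 TPM, where fewer genes were tested. At an adjusted p under 0.01, 2609 genes passed, 2041 higher and 568 lower, with 10 ribosomal proteins lower. With a 2-fold minimum, 475 passed, 399 higher and 76 lower. Members were then 15 (ER, lower), 10 (contractile), 10 (collagens), 6 (matrix), 6 (YAP), 5 (TGF-beta), 7 (inflammatory), 6 (interferon), 2 (NF-kappaB), 4 (immediate-early), 4 (fatty acid oxidation), 1 (cholesterol) and 0 (ribosomal, lower).

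Same-numbered libraries deviated together with correlations of -0.09, -0.05 and 0.13, and differently numbered ones with correlations from -0.20 to 0.22. With so few libraries these values cannot show whether replicate numbers mark shared cultures. With the replicate number as a block 2732 genes were higher, 867 lower, and 6 ribosomal proteins lower. With that block and median-of-ratios scaling 1770 were higher, 1791 lower, 6 NF-kappaB and 9 fatty acid oxidation members higher, and 14 ribosomal proteins lower.

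Leaving out each of the 6 drug libraries in turn gave 2325 to 2996 higher and 702 to 986 lower genes, 10 to 25 ribosomal proteins lower and 9 to 19 cholesterol genes higher. Of the 232 named genes 0 changed direction in the alternatives that tested them (219 of them with the filter at 5 TPM), and 17 lost their call with median-of-ratios scaling. The causes were not tested. Unknown depth limits what can be said of genes near 1 TPM.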

Other observations

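Of 16 genes of iron handling 8 rose and 2 fell between the doses, where 25.7% and 8.06% of all tested genes did. Cp, ceruloplasmin, a ferroxidase, had 43.8, 37.6 and 48.4 TPM at 200 µM, against 17.9, 14.7 and 20.1 TPM at 100 µM, above every GD and control library (log2 fold change 1.26, adjusted p = 4.02e-05). Tfrc, the transferrin receptor, had 31.7, 26.1 and 31.3 TPM at 200 µM, against 19.5, 18.3 and 17.7 TPM at 100 µM. Fth1, the ferritin heavy chain, had 16943, 18440 and 18613 TPM at 200 µM, against 21452, 18774 and 22842 TPM at 100 µM (log2 fold change -0.22, adjusted p = 0.0469). That call was lost when any drug library except replicate 2 of 100 µM was left out.

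H19, an imprinted long RNA, had 1384, 954 and 1157 TPM at 200 µM, against 283, 415 and 338 TPM at 100 µM and 4289 to 4599 TPM in control (log2 fold change 1.75, adjusted p = 2.38e-06). Igfbp5, which binds insulin-like growth factors, had 49.8, 26.1 and 25.2 TPM at 200 µM, against 2.31, 7.65 and 2.27 TPM at 100 µM (log2 fold change 2.86, adjusted p = 0.000117). Bcl2l11, the death-promoting protein BIM, had 10.9, 12.9 and 11.4 TPM at 200 µM, against 4.72, 3.67 and 3.69 TPM at 100 µM (log2 fold change 1.35, adjusted p = 7.06e-06). Ripk3, a kinase of necroptosis, had 19.3, 26.9 and 23.9 TPM at 200 µM, against 43.4, 34.5 and 49.0 TPM at 100 µM (log2 fold change -0.83, adjusted p = 0.000359). Gadd45b, a stress-induced growth arrest protein, had 85.7, 56.6 and 61.2 TPM at 200 µM, against 17.6, 15.8 and 14.4 TPM at 100 µM (log2 fold change 2.00, adjusted p = 5.09e-07). Trim63, a ubiquitin ligase of muscle wasting, had 30.2, 35.5 and 30.9 TPM at 200 µM, against 47.9, 61.5 and 57.4 TPM at 100 µM (log2 fold change -0.77, adjusted p = 8.23e-05).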
